A study of Mus musculus with 39 samples.

Results

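Immediate early genes are transcribed within minutes of a stimulus from factors the cell already holds, without new protein synthesis. Many of them encode subunits of AP-1, a transcription factor built from Fos and Jun proteins, or zinc-finger factors such as Egr1, and others encode proteins that shut the response off. In monocytes and macrophages they respond to inflammatory stimuli, to adhesion, and also to the handling of cells during tissue dissociation and sorting. The 10 genes described here were given as a list and were matched by symbol to Ensembl rows of the deposited count table, which has 43430 gene rows; all 10 were found and all 10 passed the filter on low counts in every edgeR fit that used one. They are the AP-1 genes Fos, Fosb, Jun and Junb, the zinc-finger genes Egr1 and Klf6, the small early-response genes Ier2 and Ier3, and the feedback genes Dusp1 (a phosphatase that inactivates MAP kinases) and Zfp36 (tristetraprolin, which binds AU-rich mRNA and promotes its decay).

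All mice were C57BL/6J, and 39 libraries were sequenced. The 20 monocyte libraries were sorted from lungs of naive animals, which had no bleomycin but were given saline or ISRIB. The 19 macrophage libraries held alveolar macrophages of monocyte origin with low Siglec F, sorted after bleomycin, which damages the lung and leads to scarring. Each kind of cell came from young saline, young ISRIB, old saline and old ISRIB mice, 5 libraries a group and 4 for young ISRIB macrophages; ISRIB is a drug that turns off the integrated stress response, a brake on protein synthesis. Young meant 8 to 12 weeks in the sample labels and 3 to 5 months in the series text, and old meant over 18 months and 18 to 24 months. By the series text ISRIB or vehicle was injected into the peritoneum every day from day 7 and cells were taken on day 21 after bleomycin; no timing is given for the naive mice. Bleomycin and cell type go together, so macrophages and monocytes differ in both, and the 2 cannot be told apart. Each sort was bulk RNA, so a change in RNA per cell and a change in the mixture of cells cannot be told apart either. The labels do not say whether each library is 1 mouse, so p-values measure the spread between these libraries.

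The library totals ran from 4595331 to 16056708 counts, and the 10 genes together held 0.698% to 1.92% of the counts of a monocyte library and 0.251% to 0.683% of those of a macrophage library. The sorts carried their defining markers: Siglecf was at 46.8 to 156 CPM (counts as a share of the library's total, scaled to the same total for every library) in macrophages and at most 1.57 in monocytes, and the summed level of 11 macrophage markers was 9737 to 20090 CPM against 418 to 641. Ly6c2, a marker of classical monocytes, was at 278 to 698 CPM in monocytes and at most 7.01 in macrophages. The summed level of 9 monocyte markers did not separate the sorts: it was 9150 to 14611 CPM in monocytes and 4216 to 12341 CPM in macrophages. Old ISRIB macrophages (5861 to 12341) reached into the monocyte range. Not every gene of that list did so. In old ISRIB macrophages Ccr2 was at 53.4 to 146 CPM, against 1057 to 3958 CPM in monocytes, and Ly6c2 at 0.828 to 2.78 CPM. Other genes of the list therefore made up that sum, and their single values are not given here.

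Positions on GRCm38, the assembly also called mm10, are given for the members other than Egr1: Fos at chr12:85473890-85477273 (+ strand), Fosb at chr7:19302696-19310051 (-), Zfp36 at chr7:28376784-28380253 (-), Jun at chr4:95049034-95052222 (-), Junb at chr8:84974484-84978718 (-), Ier2 at chr8:84661331-84662852 (-), Ier3 at chr17:35821684-35822923 (+), Dusp1 at chr17:26505590-26562128 (-) and Klf6 at chr13:5861482-5870394 (+). The strand setting of the counting is not given in the sources used here. Reads of Junb and of Prdx2, which overlaps it on the opposite strand and had up to 2319 counts in a library, therefore cannot be told apart where the genes overlap. The same holds for Jun and its antisense gene Junos (up to 134 counts) and for Dusp1 and Ergic1 (up to 1000 counts).

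Because the members moved together between macrophage libraries, and most of them between monocyte libraries, the 250 bases before the start of each gene were searched on both strands for motifs of known regulators of early genes. RefSeq starts (GRCm38) were at hand for 8 of the 10 genes. The windows of Dusp1 and Zfp36 lie wholly inside the gene intervals above, and those of Fosb, Ier3 and Klf6 lie partly inside. The core of the cyclic AMP response element, TGACG, lay in 4 of the 8 windows (Dusp1, Fos, Fosb and Junb), against 17.8% of 32851 windows of the same length. Its full palindrome TGACGTCA, which contains the core, lay in Dusp1 alone (1.55% of windows), and the CArG box, the serum response factor motif, in Zfp36 alone (1.47%). The NF-kappaB motif lay in Fos, Fosb and Ier3 (3.9% of windows), the AP-1 motif TGANTCA in none of the 8 (6.75%), and TATAAA in Fos (12.4%). Fos and Fosb varied together in macrophages but were not correlated over the monocyte libraries pooled. Their windows and those of the feedback genes Dusp1 and Zfp36 are shown 5′ to 3′ on the gene's strand. TGACG or TGACGTCA, the CArG box and TATAAA are in capitals where they read on that strand. The windows are Fos at chr12:85473640-85473889 (+), Fosb at chr7:19310046-19310295 (-), Dusp1 at chr17:26508473-26508722 (-) and Zfp36 at chr7:28379229-28379478 (-).
Fos: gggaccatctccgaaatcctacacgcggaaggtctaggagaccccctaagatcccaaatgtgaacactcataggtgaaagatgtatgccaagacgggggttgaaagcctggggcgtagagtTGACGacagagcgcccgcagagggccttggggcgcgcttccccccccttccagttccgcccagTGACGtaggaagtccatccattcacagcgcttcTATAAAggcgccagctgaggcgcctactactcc
Fosb: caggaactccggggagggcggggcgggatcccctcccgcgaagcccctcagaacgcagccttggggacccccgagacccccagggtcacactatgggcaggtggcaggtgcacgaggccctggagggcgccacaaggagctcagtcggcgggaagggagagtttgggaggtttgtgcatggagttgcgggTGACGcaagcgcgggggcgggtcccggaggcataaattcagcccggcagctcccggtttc
Dusp1: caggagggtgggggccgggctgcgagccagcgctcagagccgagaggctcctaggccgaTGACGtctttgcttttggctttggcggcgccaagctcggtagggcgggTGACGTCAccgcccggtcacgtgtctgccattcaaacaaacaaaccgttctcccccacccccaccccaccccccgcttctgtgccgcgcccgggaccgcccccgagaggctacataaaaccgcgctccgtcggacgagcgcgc
Zfp36: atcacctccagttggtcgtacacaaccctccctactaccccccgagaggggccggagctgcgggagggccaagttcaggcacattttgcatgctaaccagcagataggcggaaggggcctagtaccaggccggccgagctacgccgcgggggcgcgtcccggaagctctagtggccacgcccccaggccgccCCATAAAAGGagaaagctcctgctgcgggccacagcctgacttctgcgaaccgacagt

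In Fos the 2 copies of TGACG began 129 and 66 bases before the start and TATAAA began 33 bases before it. The TGACG of Fosb began 60 bases, the TGACGTCA of Dusp1 143 bases and the CArG box of Zfp36 58 bases before the start. A match describes the letters and says nothing of binding, and motifs farther upstream or in other spellings were not searched for.

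AU-rich elements in 3′ untranslated regions are the sequence that Zfp36 protein binds, and the members differed in them. The nonamer TTATTTATT was present in 3 of the 10 genes (Fos, Dusp1 and Zfp36), against 6.98% of 21037 protein-coding genes and 7.34% of the 9393 of them with a mean of at least 5 CPM. The shorter ATTTA occurred a median of 3.5 times per member and 1 time per gene over all; Ier2 had none, Fosb 1 and Klf6 7. The nonamers, in capitals with 9 bases on either side, lie at chr12:85477104-85477130 (+) in Fos, chr17:26506160-26506186 (-) and chr17:26505871-26505897 (-) in Dusp1, and chr7:28376952-28376978 (-) in Zfp36.
Fos: gttttcaatTTATTTATTaagatggat
Dusp1, first site: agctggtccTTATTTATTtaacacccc
Dusp1, second site: tttttacctTTATTTATTtttgtgtag
Zfp36: atgacgactTTATTTATTgtattaaga

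The first comparison was between the kinds of cells. Of the 10 genes, 9 were lower in macrophages than in monocytes averaged over age and treatment, and none was higher (edgeR quasi-likelihood test over 13587 genes, adjusted p under 0.05). The background was high: 79.2% of all genes tested were called in this comparison, and 39.2% were called lower in macrophages. The median log2 fold change of the 10 genes was -1.53, against -0.00344 over all genes tested. Libraries of the 2 kinds of cells did not overlap for 4 of the genes (Junb, Ier2, Dusp1 and Zfp36), a pattern that 21.3% of all genes tested showed.

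Among the AP-1 genes, Fos ranged from 1090 to 5533 CPM over 20 monocyte libraries (median 4579) and from 660 to 2009 CPM over 19 macrophage libraries (median 1127). Its log2 fold change was -1.71 ± 0.135 (SE), or 3.28-fold lower (edgeR adjusted p = 1.12e-14). Junb, which restrains Jun in several settings, ranged from 1366 to 2561 CPM in monocytes and from 360 to 1018 CPM in macrophages. Every monocyte library lay above every macrophage library for Junb, 2.89-fold lower in macrophages. Fosb was also 2.89-fold lower (544.7 to 1538 CPM against 100.6 to 639.9) and Jun 2.28-fold lower (126.8 to 829.3 against 153.6 to 407.0). The lowest Jun value of all 39 libraries was in a monocyte library, old ISRIB replicate 5.

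The feedback genes stood farthest apart. Dusp1 ranged from 1470 to 4116 CPM in monocytes (median 3198) and from 332.6 to 1180 CPM in macrophages (median 588). It was 4.61-fold lower in macrophages (log2 -2.20 ± 0.14, edgeR adjusted p = 1.32e-17) with no overlap between libraries. Zfp36 ranged from 1079 to 3095 CPM against 407 to 894 CPM and was 3.52-fold lower. Ier2, an early transcriptional regulator, was 3.23-fold lower, and Egr1, which ranged from 77.8 to 541.7 CPM in monocytes and from 21.3 to 363.8 CPM in macrophages, 2.83-fold lower. Klf6, a Krüppel-like factor, fell least of the 9, 1.62-fold. Ier3, a survival-related early gene, had a log2 fold change of -0.38 ± 0.213 and was not called (edgeR adjusted p = 0.0963); its libraries ran from 10.5 to 96.7 CPM in monocytes and from 19.1 to 79.9 CPM in macrophages. Ier3 was called only where young ISRIB monocyte replicate 4, its lowest library, was left out (edgeR adjusted p = 0.0456).

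Per kilobase of exon, Fos had the highest mean level of the 10 in both kinds of cells, 1826 CPM per kb in monocytes and 525 in macrophages. In monocytes Dusp1 (935), Junb (840) and Zfp36 (637) followed, and Ier3 was lowest at 41.9. In macrophages Junb (277) stood above Dusp1 (195) and Zfp36 (170), and Egr1 was lowest at 29.5, next to Ier3 at 31.1. The divisor holds the exons of all annotated transcripts, 2301 bases for Junb, 3311 for Dusp1 and 3470 for Zfp36. Which of these exons the cells use was not tested, so the orders hold for this divisor only.

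**Figure D1:**
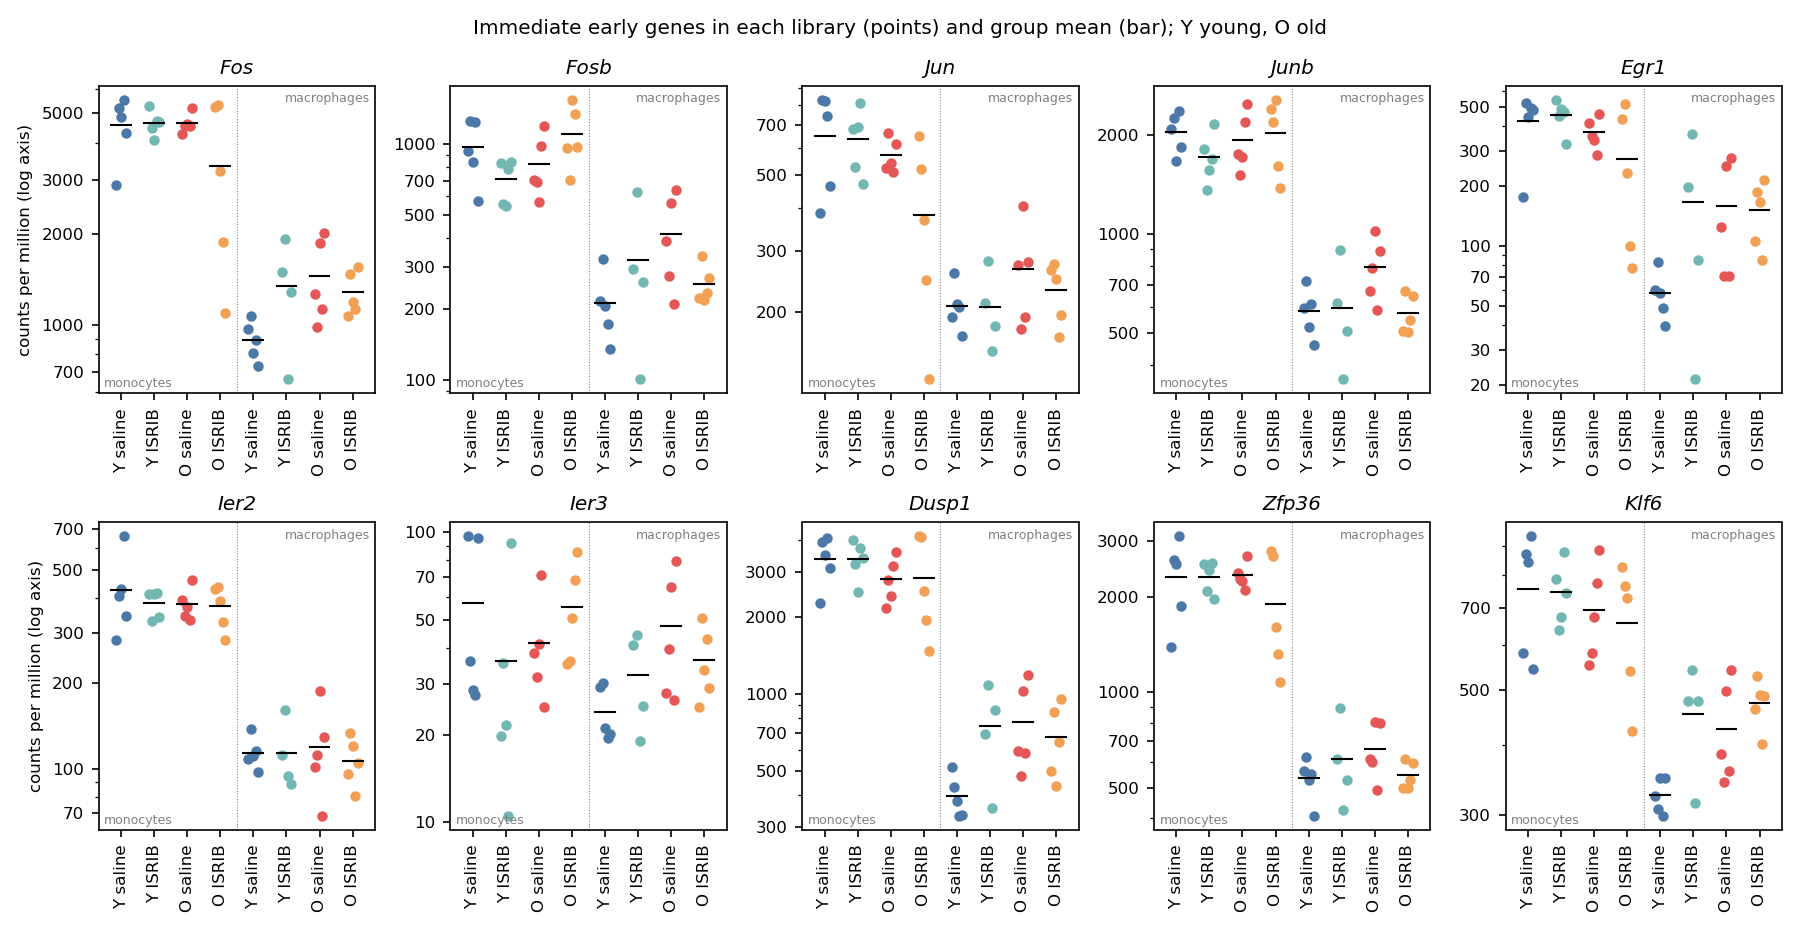
Level of each of the 10 genes in CPM (log axis) in every library, by group; points are libraries and bars are group means, with the 4 monocyte groups left of the dotted line and the 4 macrophage groups right of it. Junb, Ier2, Dusp1 and Zfp36 show no overlap between the 2 kinds of cells, Ier3 overlaps throughout, and the old ISRIB monocytes spread from 1090 to 5316 CPM for Fos.

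Other early genes and their regulators were mostly lower in macrophages too, with exceptions. Of 8 AP-1 partners, 6 were lower and 1 was higher; Atf3, a stress-induced partner of Jun, was at 749 ± 249 CPM in monocytes (SD, n = 20) and fell to 107 ± 54.2 CPM in macrophages (SD, n = 19). Of 16 other early transcription regulators, 11 were lower and 4 were higher. Nr4a1, an orphan nuclear receptor required for patrolling monocytes, fell by 5.10 on the log2 scale (2165 ± 640 to 62.3 ± 33.6 CPM), and Klf2, a factor that keeps monocytes quiescent, fell by 4.56. Egr2, a relative of Egr1, went the other way and rose by 4.01 on the log2 scale (8.31 ± 3.58 to 125 ± 36 CPM). Of 23 feedback and signalling genes, 18 were lower and 3 were higher, and Dusp2, a further MAP kinase phosphatase, fell by 4.4 on the log2 scale. Nfkbiz, a regulator of NF-kappaB target genes, fell by 3.07 on the log2 scale. Of 18 upstream kinases and factors, 11 were lower and 5 higher; Mrtfb, a coactivator of serum response factor, rose by 2.47 on the log2 scale and Mapk8, the kinase JNK1, fell by 1.41. The genes that were higher, named after their values were seen, were Batf among the partners, Bhlhe40, Maff and Myc beside Egr2 among the regulators, and Ccn1, Sgk1 and Plk3 among the feedback genes. Each count stands against the 79.2% called among all genes.

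Of 11 heat shock genes, which also respond to stress and handling, 10 could be tested; 6 were lower and 2 higher in macrophages, a share near the 79.2% called among all genes. Hspa1a (mean 32.7 CPM in monocytes and 3.11 CPM in macrophages) fell by 3.30 on the log2 scale. Hspa1b fell by 3.83 on that scale. These 2 are near-identical copies whose reads the counting can split. Summed over the list the heat shock level was 2035 to 4099 CPM in monocytes and 1853 to 2986 CPM in macrophages. The part of handling or stress in the difference of the 10 genes was not tested.

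**Figure D2:**
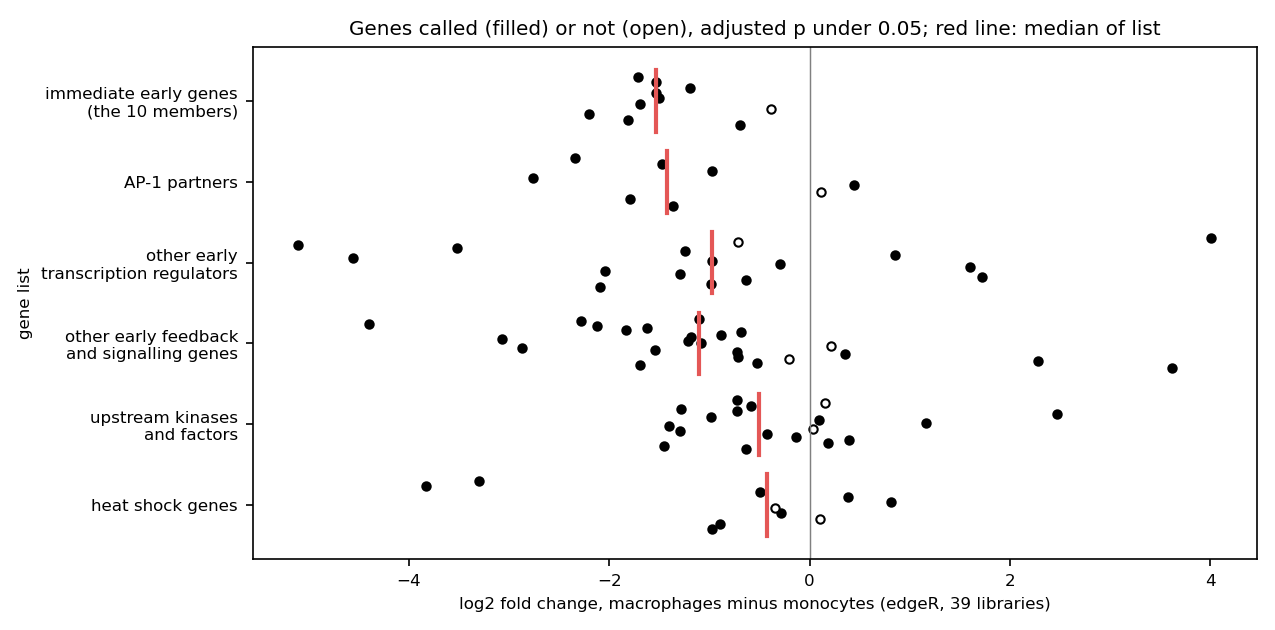
Log2 fold change, macrophages minus monocytes, of each gene in 6 lists (rows); filled points are genes called by edgeR at an adjusted p under 0.05, open points were not called, and the red line is the median of a list. The 10 members lie between -2.20 and -0.38, while Egr2, the rightmost point of the second list of regulators, lies at 4.01.

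Within macrophages the next question was whether age and ISRIB moved the early genes. In saline-treated mice the log2 fold change of old over young was above 0 for all 10 genes, with a median of 0.608 against 0.0041 over all genes tested. None of the 10 was called by edgeR at an adjusted p under 0.05, where 1.16% of 12171 genes were. At an unadjusted p under 0.05, 9 of the 10 passed, against 12.7% of all genes. DESeq2 called 1 of them (Klf6), limma voom none, edgeR on the 2 groups alone 3 (Fos, Egr1 and Dusp1), and edgeR without the filter on low counts 9, all but Ier2. In none of the 4 comparisons of macrophage groups did the libraries of the groups stand apart without overlap for any member, which 3.15% of all genes did with age and saline, 4.91% with age and ISRIB, 3.9% with ISRIB in young and 1.08% with ISRIB in old mice.

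Dusp1 read 518, 432, 379.4, 332.6 and 335.7 CPM in young saline macrophages and 599, 477, 1025, 588 and 1180 CPM in old saline macrophages (replicates 1 to 5). Old replicates 3 and 5 were the highest, and old replicate 2 lay below the highest young library. The log2 fold change was 0.99 ± 0.26 (SE; edgeR adjusted p = 0.0601). Egr1 read 60.0, 83.4, 58.1, 48.9 and 39.7 CPM in young and 125, 70.8, 253, 70.7 and 276 CPM in old saline macrophages, again with replicates 3 and 5 on top and overlap at the bottom. Its log2 fold change was 1.49 ± 0.467 (edgeR adjusted p = 0.127). Fos read 965, 1070, 804, 892 and 733 CPM in young and 1268, 985, 1861, 1125 and 2009 CPM in old, with a log2 fold change of 0.73 ± 0.208 (edgeR adjusted p = 0.0827).

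Ier3 was at 29.3, 30.3, 21.1, 19.5 and 20.2 CPM in young and at 27.8, 39.6, 64.5, 26.4 and 79.9 CPM in old saline macrophages, a log2 fold change of 1.03 ± 0.27 (edgeR adjusted p = 0.0601). Fosb followed at 1.01 ± 0.325, and Junb, Klf6, Jun and Zfp36 lay between 0.35 and 0.48. Ier2 was the lowest at 0.11 ± 0.185, with 97.7 to 138 CPM in young and 68.3 to 188 CPM in old libraries. The genes with the largest estimates, Egr1, Ier3, Fosb and Dusp1, were also the 4 members that varied most between macrophage libraries of a group; Egr1 had a within-group SD of 1.0 on the log2 scale, larger than that of 92.7% of genes in macrophages.

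The members called depended on the libraries. Without old saline replicate 2, 4 members were called (Fos, Ier3, Dusp1 and Klf6). Without old saline replicate 1, 2 were called (Ier3 and Dusp1), and without old saline replicate 4, 1 (Ier3). Without replicate 3 or without replicate 5 none was, and the log2 fold change of Dusp1 was 0.88 and 0.79, that of Egr1 1.28 and 1.2, and that of Ier2 -0.10 and 0.08.

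Markers of other cells moved with the same libraries. The summed level of 8 B cell markers, all 8 with counts in both groups, was 6.53 to 29 CPM in young and 21.9 to 394 CPM in old saline macrophages, with 157 in old replicate 3 and 394 in old replicate 5. The 9 neutrophil markers summed to 48.5 to 60.8 CPM in young and 64.1 to 97.0 CPM in old libraries, with Ngp at 0 in every old one. Old replicates 3 and 5 also had the highest summed monocyte markers of their group, 8107 and 7722 CPM, and the highest summed heat shock genes, 2717 and 2882 CPM against 1969 to 2071 CPM in the other old saline libraries. Their macrophage markers, at 11842 and 14486 CPM, were the lowest of the group. The part of these in the early genes was not tested.

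Feedback genes outside the 10 members did pass the test with age in saline macrophages. Of 22 of the 23 that could be tested, 6 were higher in old and none lower, where 0.937% of all genes were called higher in old. The list was chosen with earlier results of these data known, so this count only describes it. Tnfaip3 (A20, an inhibitor of NF-kappaB signalling) rose from 71.5 ± 5.98 to 174 ± 47.3 CPM (SD, n = 5 each; log2 1.33 ± 0.197, edgeR adjusted p = 9.79e-04). Ppp1r15a (GADD34, which directs the phosphatase that reverses phosphorylation of eIF2alpha) rose from 14.6 ± 2.79 to 33.7 ± 6.69 CPM (log2 1.25 ± 0.186). Nfkbiz rose from 25.6 ± 4.27 to 55.2 ± 24.6 CPM, but was not called under 8 of 17 alternatives, among them leaving out any of the 5 young saline libraries or old saline replicate 3 or 5. Of 16 other early transcription regulators 1 was called, Maff, a small Maf factor, which rose from 23.6 ± 5.87 to 42.2 ± 12.1 CPM and was not called under 6 of 17 alternatives. None of the 7 AP-1 partners tested, 18 upstream kinases and factors or 10 heat shock genes was called.

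In ISRIB-treated mice the old and young macrophages lay close together for the same genes. Of the 10 members, 7 were below 0 and 3 above, none was called (0.937% of all genes were) and none had an unadjusted p under 0.05 (12.2% of all genes did). The log2 fold changes ran from -0.36 (Fosb) to 0.14 (Ier3). Dusp1 read 696, 1085, 357 and 860 CPM in young ISRIB macrophages and 499, 846, 435, 645 and 950 CPM in old ISRIB macrophages, so that the young libraries spanned the old ones, with a log2 fold change of -0.16 ± 0.272. The standard errors, from 0.133 for Klf6 to 0.477 for Egr1, are as wide as those of the saline comparison.

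The ISRIB effect itself was then taken at each age. In young macrophages all 10 log2 fold changes of ISRIB over saline were above 0 (median 0.493, against -0.00234 over all genes), from 0.03 for Jun to 1.58 for Egr1. None was called by edgeR (0% of all 12171 genes were). An unadjusted p under 0.05 was found for 4 (Fos, Egr1, Dusp1 and Klf6), against 12.4% of all genes. Early genes outside the members were mixed. Above 0 lay 4 of 7 AP-1 partners tested, 6 of 16 other early transcription regulators and 15 of 22 feedback genes tested. Below 0 lay 3, 10 and 7, and the medians of these lists were 0.155, -0.0623 and 0.205. Egr1 read 199, 364, 21.3 and 84.7 CPM with ISRIB, a spread that held both the highest and the lowest macrophage value of the gene, against 39.7 to 83.4 CPM with saline (log2 1.58 ± 0.487, edgeR adjusted p = 0.177). Klf6 read 479, 542, 316 and 478 CPM with ISRIB and 324, 307, 349, 299 and 349 CPM with saline, where 3 ISRIB libraries lay above all saline libraries and replicate 3 did not. Its log2 fold change was 0.51 ± 0.133 (edgeR adjusted p = 0.128).

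Young ISRIB replicate 3 was the lowest of its group for 9 of the 10 genes and replicate 2 the highest for all 10. Without replicate 3, Fos, Egr1, Dusp1 and Klf6 were called, with Klf6 at 0.66 (edgeR adjusted p = 0.00659) and Egr1 at 1.95 (0.0162). Without replicate 2 none was, and Egr1 was at 0.85. DESeq2 called Klf6 alone with all libraries. In replicate 3 the 9 monocyte markers summed to 7545 CPM against 4720 to 5739 in the other 3 young ISRIB libraries, and the heat shock genes to 1980 CPM against 2196 to 2348; their part was not tested.

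In old macrophages 9 of the 10 log2 fold changes of ISRIB over saline were below 0 (median -0.216, against 0.000163 over all genes), and Klf6 was at 0.13. None was called (0% of all genes were), and 2 had an unadjusted p under 0.05 against 9.14% of all genes: Junb at -0.47 ± 0.176 and Fosb at -0.71 ± 0.323 (edgeR adjusted p = 0.454 and 0.516). Junb read 671, 787, 1018, 588 and 889 CPM with saline and 505, 671, 501, 549 and 649 CPM with ISRIB. Fosb read 388, 277, 563, 210 and 640 CPM with saline and 222, 335, 218, 233 and 271 CPM with ISRIB. For Junb, 3 of the 5 ISRIB libraries lay below every saline library and the other 2 within the saline range, and for Fosb all 5 ISRIB libraries lay in the lower part of the saline range. Summed markers of cell types moved with this comparison as well. The 9 monocyte markers summed to 4216 to 8107 CPM with saline and 5861 to 12341 CPM with ISRIB (medians 6961 and 9890), the 11 macrophage markers to 11842 to 19945 and 9737 to 17413 CPM (medians 15506 and 11893), and the 8 B cell markers to 21.9 to 394 and 147 to 562 CPM (medians 115 and 212). No marker of these 3 lists was at 0 throughout either group. Single markers did not all follow their sums. With saline and with ISRIB the median was 93.3 and 96.1 CPM for Ccr2, 1.83 and 1.37 for Ly6c2, and 82.4 and 120 for Siglecf. C1qa (637 and 483), Igkc (30.1 and 53.8) and Cd79a (2.94 and 7.55) did follow the sums of these markers. Their part in the early genes was not tested.

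The difference between the ISRIB effects of old and young macrophages was tested as an interaction. All 10 genes had a lower ISRIB effect in old mice, from -0.22 (Ier2) to -1.66 (Egr1) on the log2 scale, with a median of -0.681 against -0.00526 over all genes. None was called (0% of all genes were; the smallest edgeR adjusted p was 0.874, for Dusp1 at -1.15 ± 0.375), and 8 had an unadjusted p under 0.05 against 5.1% of all genes. The same libraries enter all of these contrasts, and the 10 genes vary together between libraries, so the 10 signs are not 10 separate observations. Averaged over age, ISRIB left Klf6 at 0.32 ± 0.0913 (edgeR adjusted p = 0.0743; 0.83% of all genes were called); averaged over treatment, age left Ier3 at 0.58 ± 0.196 (adjusted p = 0.0898; 4.86% were called).

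**Figure D3:**
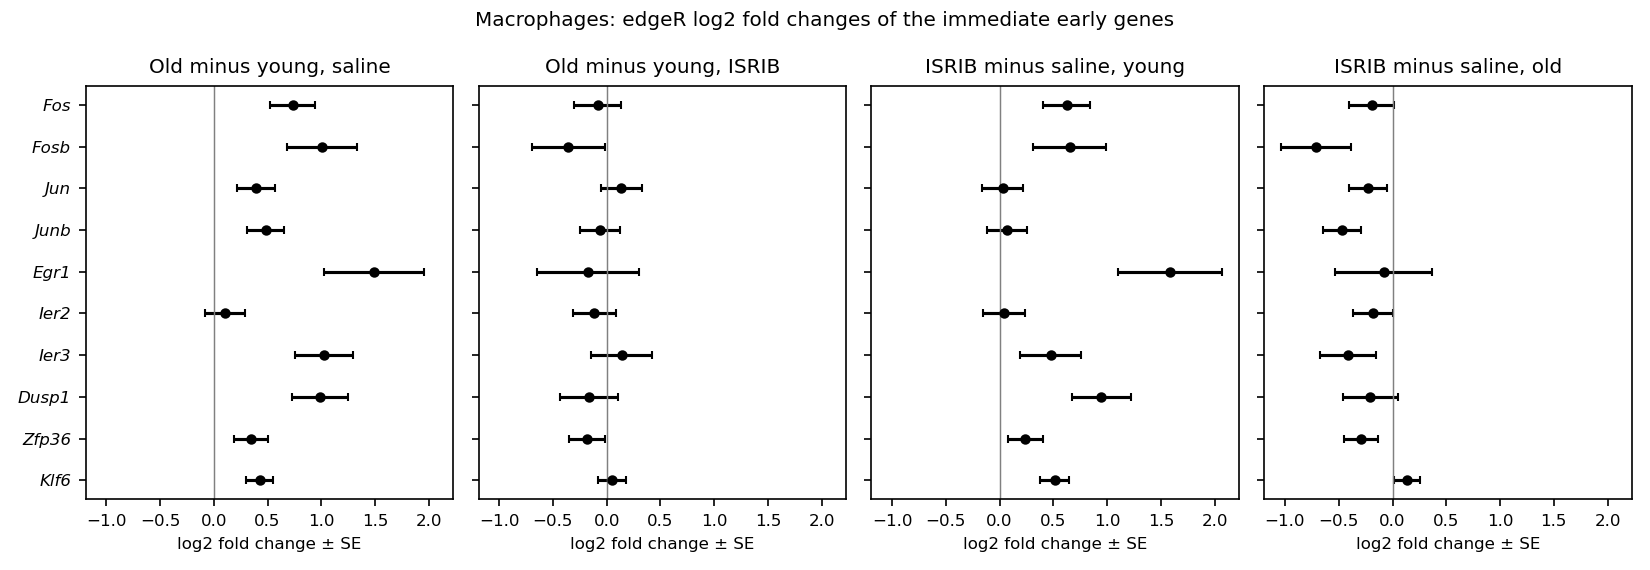
Log2 fold changes of the 10 genes (points) with their standard errors (bars) from the edgeR fit of the 19 macrophage libraries, in 4 panels: old minus young with saline and with ISRIB, and ISRIB minus saline in young and in old mice. The points lie right of 0 in the first panel (0.11 to 1.49) and the third (0.03 to 1.58), around 0 in the second (-0.36 to 0.14), and left of 0 in the last except Klf6; none passed the adjusted threshold.

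In monocytes no member was called in any of the 7 contrasts of age and ISRIB, by edgeR, DESeq2 or limma voom. All genes called were few as well, from 0% to 0.123% of the 12170 tested. With age in saline monocytes (0.0247% of genes called) the 10 members lay between -0.51 (Ier3) and -0.01 (Zfp36), and none had an unadjusted p under 0.05, where 8.81% of genes did. With age in ISRIB monocytes 2 members had an unadjusted p under 0.05, Fosb and Jun, against 6.6% of genes. In the other monocyte contrasts this count was 0 with ISRIB in old mice (7.54% of genes) and with ISRIB averaged over age (7.49%), and 1 with age averaged over treatment (Jun; 8.24%) and in the difference of the ISRIB effects (Fosb; 7.11%). The ISRIB effect in young monocytes ran from -0.70 (Ier3) to 0.08 (Egr1), with no unadjusted p under 0.05 where 6.65% of genes had one. Other early genes were less flat with ISRIB in old monocytes, though none was called. An unadjusted edgeR p under 0.05 was found for 5 of 8 AP-1 partners, 7 of 16 other early transcription regulators and 6 of 22 feedback genes. Above 0 lay 4, 13 and 18 genes of these lists and below 0 lay 4, 3 and 4. Their median log2 fold changes were 0.205, 0.497 and 0.211, against -0.0112 over all genes. The difference between the age effects of macrophages and monocytes, averaged over treatment, was above 0 for all 10 genes, from 0.09 (Ier2) to 1.13 (Egr1). None was called (0.743% of all genes were; the smallest edgeR adjusted p was 0.196, for Jun), and 5 (Fos, Jun, Egr1, Dusp1 and Klf6) had an unadjusted p under 0.05 against 11.5% of all genes. All 10 heat shock genes tested were also above 0 in this contrast, with a median of 0.605 against 0.456 for the members and 0.00691 over all genes. Of them Hsp90ab1 (0.61 ± 0.13, edgeR adjusted p = 0.0108) and Hspa8 (0.60 ± 0.132, edgeR adjusted p = 0.0149) were called, and both were called under all 44 alternatives. The part of the heat shock genes in the members' difference was not tested.

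Fos and Jun differed most between libraries in old ISRIB monocytes, with coefficients of variation of 57.4% and 54.7% against at most 39.3% and 34.2% in the other 7 groups. Fos read 5258, 5316, 3211, 1875 and 1090 CPM in replicates 1 to 5, whereas the other 15 monocyte libraries lay between 2903 and 5533 CPM. Fosb did not share that spread and read 963, 704, 1538, 1341 and 968 CPM in the same libraries. Fosb counts per 100 Fos counts were 18.3, 13.2, 47.9, 71.5 and 88.8, against 12.3 to 32.3 in the other monocyte groups. Replicates 3, 4 and 5 thus had the lowest Fos of the group. Fosb was the highest of the group in replicates 3 and 4, while replicate 5 (968 CPM) was about level with replicate 1 (963 CPM).

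Egr1 and Jun went with Fos in these libraries. Egr1 read 434, 519, 233, 99.9 and 77.8 CPM and Jun 652, 522, 369, 247 and 127 CPM in old ISRIB replicates 1 to 5. Ier3 read 35.3, 36, 50.7, 68.2 and 85.4 CPM, highest where Jun was lowest. The group means did not separate: against old saline monocytes the log2 fold change was -0.44 ± 0.265 for Fos, 0.46 ± 0.237 for Fosb, -0.55 ± 0.278 for Jun and 0.46 ± 0.475 for Ier3, none called (edgeR adjusted p from 0.68 to 0.876 for these 4; 0% of genes were called). Heat shock genes summed to 2554, 2648 and 2820 CPM in replicates 3, 4 and 5 against 2315 and 2154 CPM in replicates 1 and 2, and dendritic cell markers (6 genes) to 139, 177 and 163 CPM against 62.7 and 82.1 CPM. Epithelial markers (8 genes) were at 76.0 CPM in replicate 5 and at most 3.15 in the other 4. Their part in the early genes was not tested.

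How the members varied together was measured across libraries, on log2 CPM with each group centred on its own mean, and with permutation within groups (100000 draws, Benjamini-Hochberg adjustment over the 45 pairs of each kind of cell). In macrophages all 45 pairs were positively correlated, with a median Pearson r of 0.78, and 41 had an adjusted p under 0.05. The highest was Junb with Zfp36, at r = 0.966 and Spearman's rho = 0.954 (permutation p = 1e-05 for r, the smallest the draws can give, adjusted 0.00015); r was 0.933 without the 2 libraries farthest from the median of Junb. The lowest was Ier2 with Dusp1, at r = 0.501 and rho = 0.54 (permutation p = 0.08 and 0.048), and r was 0.479 without the 2 farthest. Fos and Fosb, which both pair with Jun proteins in AP-1, had r = 0.932 and rho = 0.93 in macrophages.

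In monocytes 34 pairs were positive and 11 negative, with a median r of 0.59. Of 31 pairs with an adjusted p under 0.05, 7 were negative. The highest was Fos with Egr1, at r = 0.921 and rho = 0.8 (permutation p = 0.00079 and 0.0011, adjusted 0.0021 and 0.0026), and r was 0.872 without the 2 libraries farthest in Fos, old ISRIB replicates 2 and 5. The lowest was Jun with Ier3, at r = -0.737 and rho = -0.842 (permutation p = 1e-05 and 3e-05, adjusted 0.00015 and 0.0003), with r at -0.828 without the 2 farthest. Fos and Fosb had r = -0.0618 and rho = 0.25 (permutation p = 0.84 and 0.34) over the monocyte libraries pooled. Without old ISRIB replicates 2 and 5, r was 0.119. Single groups differed: among old ISRIB libraries, replicates 3, 4 and 5 had the lowest Fos, and replicates 3 and 4 had the highest Fosb. In young ISRIB monocytes replicates 2 and 3 were lowest in both genes, and in old saline monocytes replicate 5 was highest in both. In young saline monocytes the order was mixed. Correlation within single groups and the difference between the 2 kinds of cells were not tested. Fos and Dusp1, by contrast, had r = 0.912 in macrophages and 0.909 in monocytes.

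**Figure D4:**
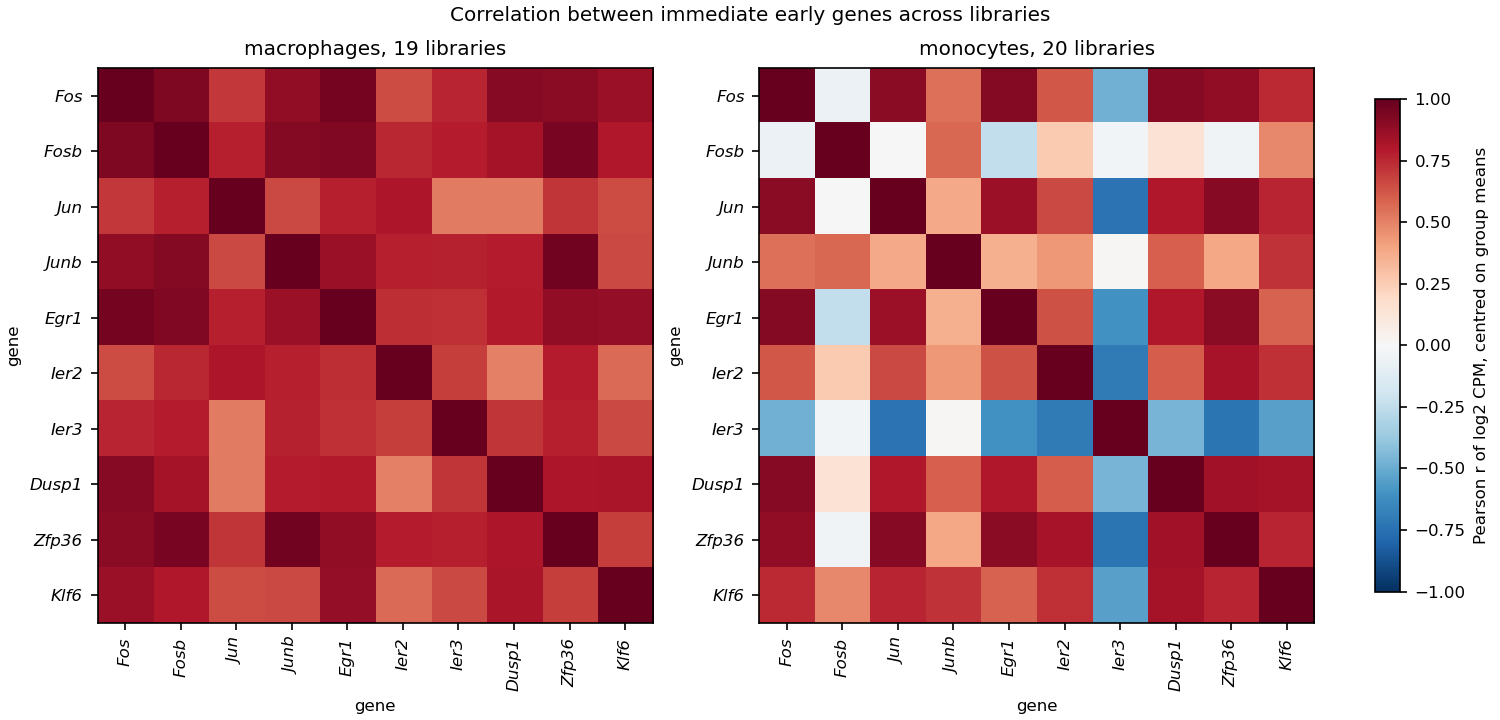
Pearson correlation (colour) between the 10 genes across 19 macrophage libraries (left) and 20 monocyte libraries (right), on log2 CPM centred on group means. The macrophage panel is positive throughout, from 0.50 to 0.97, and the monocyte panel has negative values for Ier3 with every gene but Junb (0.009), down to -0.74. Fosb there runs from -0.247 with Egr1 to 0.577 with Junb.

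Ier3 was the member that varied most between monocyte libraries, with a within-group SD of 0.864 on the log2 scale, larger than that of 86% of genes. It ran from 27.4 to 96.7 CPM in young saline monocytes and from 10.5 to 92.1 CPM in young ISRIB monocytes. The young saline libraries at 96.7 and 95.7 CPM of Ier3 (replicates 1 and 5) had the lowest Jun of their group, 389 and 464 CPM, and the young ISRIB library at 92.1 CPM (replicate 5) also had the lowest Jun of its group, 473 CPM. Ier2 and Junb varied least in monocytes, with SDs of 0.267 and 0.294.

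**Figure D5:**
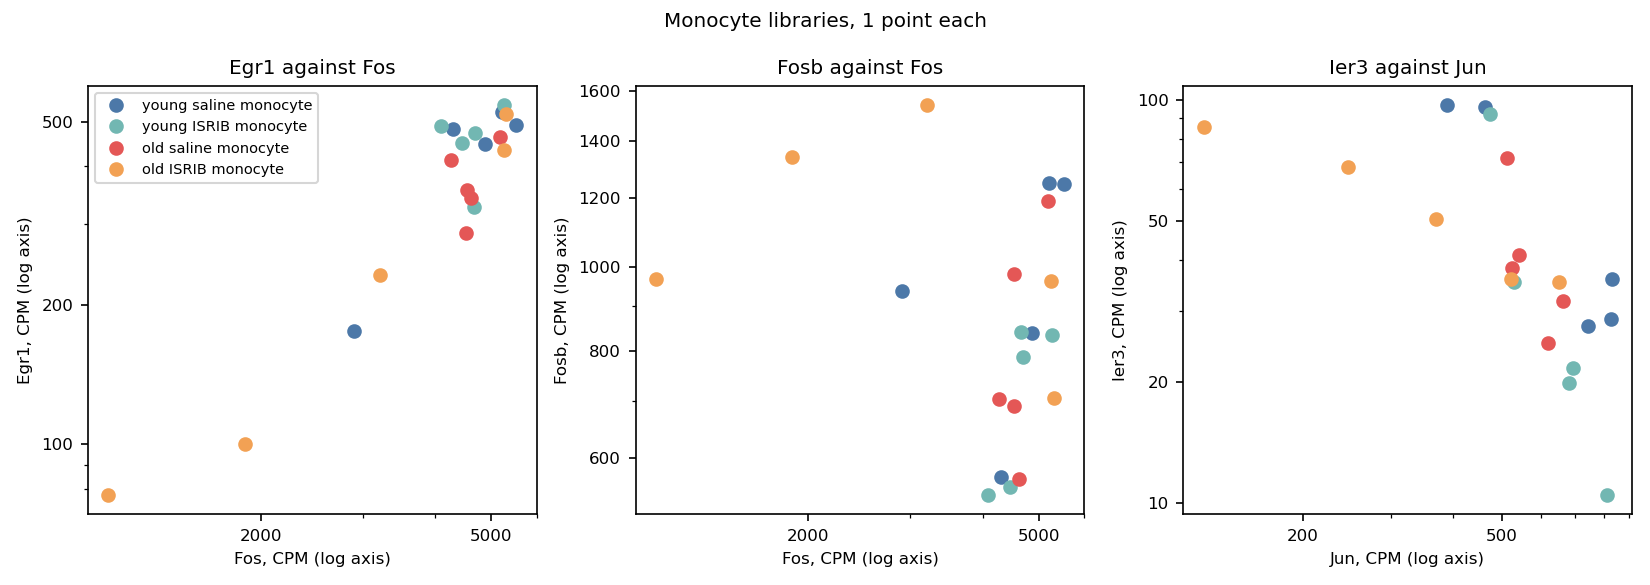
Monocyte libraries (1 point each, coloured by group, both axes CPM on a log scale), with Egr1 against Fos, Fosb against Fos and Ier3 against Jun. Egr1 is at 77.8 CPM in old ISRIB replicate 5, the library with the lowest Fos, Fosb stays at 704 CPM or above in all 5 old ISRIB libraries, and Ier3 is high where Jun is low.

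Genes outside the list were ranked by how their group-centred log2 CPM followed the mean of the 10 members. Of 9572 genes compared over 19 macrophage libraries the closest were Btg2, an antiproliferative early gene (r = 0.96), Pim3 (0.92), the adhesion receptor Adgre5 (0.90), Pim1 (0.89) and Nfkbiz (0.89). Pim1 and Pim3 are related serine/threonine kinases. Of 9135 genes over 20 monocyte libraries they were Rsbn1l (0.89), Klf2 (0.88), Ppp1r15a (0.87), the salt-inducible kinase Sik1 (0.84) and Cd69, an early activation antigen (0.82). These r share libraries with the members' own mean and describe these libraries alone.

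By group mean, the 4 monocyte groups held the top 4 places for every member except Ier3, and the 4 macrophage groups the lower places. Neighbouring groups in these orders overlapped in their libraries except at 5 steps. Those were the step from monocytes to macrophages for Junb, Ier2, Dusp1 and Zfp36, and the last step for Egr1. There young saline macrophages at 39.7 to 83.4 CPM lay below old ISRIB macrophages at 84.7 to 215 CPM. These groups differ in age and in drug, were set side by side by the order of means, and nearly met, at 83.4 and 84.7 CPM. The share of all genes that stood apart between them was not counted. Young saline macrophages had the lowest mean of Fos, Fosb, Egr1, Ier3, Dusp1, Zfp36 and Klf6 among the 8 groups.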

How the data were processed

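PolyA-selected libraries were made from 3 ng of total RNA and sequenced on an Illumina NextSeq instrument, per the labels. The deposited table gives raw read counts for each Ensembl gene and library, per the file headers. The submitters' processing notes name mm10, bcl2fastq 2.19.1, FastQC, Trimmomatic 0.36, STAR 2.6.0 and HTSeq 0.11.2; strand setting and annotation were not given in the sources used. Symbols, exon lengths and 3′ UTRs came from GENCODE (GRCm38), which matched 42462 of 43430 rows.

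Levels are counts divided by the library total, scaled to CPM, and per kilobase of the union of exons where genes are compared. Groups were compared with edgeR 4.0.16 in R 4.3.3 (quasi-likelihood test, TMM, filterByExpr with a minimum count of 10 and total of 15, Benjamini-Hochberg adjustment over all genes tested), fitted to 19 macrophage, 20 monocyte or all 39 libraries with a mean per group and no covariate. A gene was called at an adjusted p under 0.05. SE is the log2 fold change over the root of F. Library totals of 4595331 to 16056708 counts and the spread between libraries of a group together set the precision. Correlations used log2 CPM with a prior count of 2; likeness was ranked over genes averaging 5 CPM or more. DESeq2 1.42.0, limma voom 3.58.1, other normalisation, no filter, a replicate block, other sample sets and leaving out each library were the alternatives. The test was tested on simulated data.

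The members are always named; other list genes only among the 3 largest called changes of a list in a comparison, unless said otherwise. Members and lists were chosen with earlier results of these data known.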

Additional observations from a re-analysis of the deposited data

Results flagged for a closer look

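In young saline monocytes Egr1 was at 176 CPM in replicate 1, and the nearest other library of the group was at 446 CPM. That gap took 0.776 of the range of the 5 libraries, above the critical value of 0.71 for an outlying value among 5. The same library had the lowest Fos (2903 CPM), Jun (389 CPM) and Zfp36 (1387 CPM) of its group and the highest Ier3 (96.7 CPM). It was the only one flagged among 80 combinations of member and group, where chance flags about 1 in 20 groups.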

How the results depend on the processing

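Of 3749 values of the 10 members under the alternatives, 3695 kept their direction when called and their side of the threshold. A further 54 became called and none was lost or reversed. Only the 9 members called between macrophages and monocytes had a call to lose, because the main fits called no member in any other comparison. The sign changed in 177 values where neither was called. DESeq2 gave no adjusted p for Ier3 with ISRIB in old macrophages. Of 375 counts of members called, 20 moved, and the cause was not tested. Without the filter on low counts edgeR called 9 members with age in saline macrophages, 6 with age averaged over treatment, 5 with ISRIB in young macrophages, 2 with ISRIB in old macrophages, 3 with ISRIB averaged over age and 4 in the difference of the ISRIB effects, against 0 each with the filter. DESeq2 called 1 member in each of age in saline macrophages, ISRIB in young macrophages and ISRIB averaged over age. A fit of only the 2 groups compared called 3 with age in saline macrophages (Fos, Egr1 and Dusp1). Leaving out 1 library in turn gave 0 to 4 members with age in saline macrophages, 0 to 4 with ISRIB in young macrophages, 0 to 2 with ISRIB averaged over age, 0 to 1 with age averaged over treatment and 9 to 10 between macrophages and monocytes. Over all genes, the 141 called with age in saline macrophages became 60 to 468 under other settings and 47 to 289 without 1 library, the 114 with age in ISRIB macrophages 50 to 405 and 33 to 161, the 101 with ISRIB averaged over age 17 to 640 and 13 to 649, the 592 with age averaged over treatment 340 to 975 and 415 to 723, and the 101 in the difference of age effects 88 to 220 and 68 to 144. The 0 with ISRIB became up to 220 in old and 224 in young macrophages under other settings, and up to 30 and 304 without 1 library. In monocytes the 3 with age and saline became 0 to 43 under other settings and 0 to 8 without 1 library, the 15 with age averaged over treatment 11 to 69 and 6 (without old saline replicate 1) to 25 (without young saline replicate 4), and the 0 of the other contrasts up to 41 and up to 17 (age with ISRIB, without old ISRIB replicate 2); the 0 in the difference of ISRIB effects of macrophages became up to 33. Whether equal replicate numbers in the labels pair libraries was not tested. Over 27 pairs of equal number in macrophages the correlation of deviations ran from -0.15 to 0.17, and over 30 pairs in monocytes from -0.19 to 0.24. In macrophages 7 of 19 and in monocytes 2 of 20 libraries correlated best with their own number. With the replicate block, ISRIB averaged over age called 1 member (Klf6) in place of 0, 9 members were called between macrophages and monocytes, and 0 in every other comparison.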
